A study of Mus musculus with 4 samples.

Results

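Fibroblast rich connective tissue spots were taken from 4 lung sections as the spots with the largest share of transcripts from Col1a1, Col1a2, Col3a1 and Dcn. Visium slides carry barcoded spots that each capture polyadenylated RNA from a small area of tissue, so that a spot mixes the RNA of several cells, and a UMI (unique molecular identifier) counts a captured molecule. The score of a spot was the summed UMIs of the 4 genes as a percentage of all its UMIs, and among spots with at least 2000 UMIs the highest 5% within each section were chosen by this score. The members numbered 231 of the 4933 spots of the series, made up of 39 of 842 NV male spots, 22 of 473 NV female, 74 of 1565 V male and 96 of 2053 V female spots. The remaining spots with at least 2000 UMIs, 742, 414, 1415 and 1830 in the same order, are called other spots below. Wherever 4 values or pairs of values are given in a row without names, they follow this order of sections.

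The mice were C57BL/6J of 6 to 8 weeks at the start. Vaped (V) animals breathed aerosol of Peach Ice vape juice (70VG/30PG) from JUUL pens in whole-body chambers for 4 h a day, 5 d a week, over 9 weeks, and the study's methods name them its 0% vape group. Non-vaped (NV) animals were the controls. Each group held 1 male and 1 female, each with 1 section labelled as upper pulmonary branches, so that n = 2 mice a group, and the replicate number in the labels is also the sex.

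Fibroblasts lay down the interstitial matrix. Type I collagen is built from the Col1a1 and Col1a2 chains, type III collagen from Col3a1, and decorin, the product of Dcn, is a small proteoglycan that binds collagen fibrils. In the lung, adventitial fibroblasts sit in the cuffs around large vessels and airways and beneath the pleura, whereas alveolar fibroblasts lie in the walls of the gas exchange region, where type 1 (AT1) and type 2 (AT2) epithelial cells meet the capillaries.

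Because the score chose the members, its values describe them and test nothing. The median score of the members was 0.468%, 0.680%, 0.0787% and 0.445%, against medians of 0.106%, 0.121%, 0.0188% and 0.115% in the other spots. The lowest member and the highest other spot stood at 0.382% and 0.380%, 0.488% and 0.481%, 0.0632% and 0.0626%, and 0.360% and 0.357%. Hence the boundary was continuous in every section, and it lay far lower in the V male section than in the other 3.

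**Figure D1:**
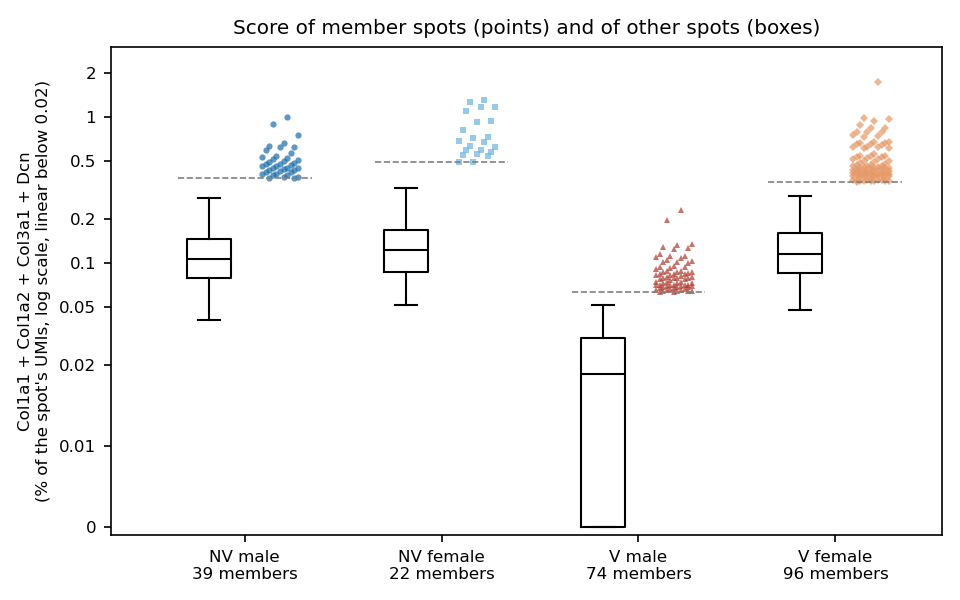
Score of each member spot (points) and of the other spots (boxes at the 25th, 50th and 75th percentile, whiskers at the 5th and 95th) in the 4 sections; the vertical axis is the share of a spot's UMIs from the 4 genes on a log scale that is linear below 0.02%, and dashed lines mark the lowest member. Members of the V male section, with a median of 0.0787%, lie within the range of the other spots of the remaining sections.

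The V male members did not carry the label's markers at the level seen elsewhere. None of the 1489 V male spots with at least 2000 UMIs reached the lowest member score of any other section, whereas 85.7% (NV male), 90.1% (NV female) and 88.5% (V female) of such spots passed the V male boundary. Over the whole section the 4 genes amounted to 1374, 1643, 243 and 1674 CPM, where 1 CPM is 1 UMI in 1000000 UMIs. A V male member held a median of 4 UMIs of the 4 genes, with a minimum of 2, while the medians of the other 3 sections were 33, 46.5 and 106. The V male members are therefore called by the rule alone. The counts of genes and of lists below are given with all 4 sections and without that section, except under alternative settings.

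Depth differed between sections and between members and other spots. The sections held between 6957392 and 34308556 UMIs. Members had fewer UMIs per spot than other spots for NV male (medians of 6284 and 10269), NV female (6295 and 11355) and V male (4558 and 6600), and more for V female (22767.5 and 11909). Among 10x barcodes, 277 to 1167 were used in both sections of a pair, and 0 to 7 barcodes were members in both. All sections came from different mice, and no spatial coordinates were used here.

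Among the genes of the score, the fold difference between members and other spots was largest for Dcn. These genes chose the members, so this order describes the choice and tests nothing. In members, Dcn stood at 2284, 3824, 248 and 2697 CPM, and at 422, 590, 30.6 and 506 CPM in the other spots. Col3a1 stood at 1045, 1383, 146 and 1045 CPM in members against 302, 359, 36.6 and 377 CPM. Dcn gave 48.0%, 56.6%, 28.5% and 51.6% of the UMIs that entered the score of the members, so that in V male members the 3 collagen genes supplied more of the score than elsewhere.

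Each of the 4 genes was also measured in spots chosen by the other 3, which leaves its level free of the choice. On the log2 scale Dcn was higher by 1.83 ± 0.15 (SE), Col3a1 by 1.52 ± 0.16, Col1a1 by 1.30 ± 0.15 and Col1a2 by 1.07 ± 0.16, with adjusted p of 2.64e-14, 1.10e-19, 4.87e-11 and 3.23e-09 in edgeR's quasi-likelihood test with Benjamini-Hochberg adjustment over all genes. Without the V male section the differences were 2.07, 1.65, 1.48 and 1.34. In the V male section alone, Dcn stood at 48.9 CPM in such spots and 37.1 CPM in the others, and Col1a2 at 111 and 98.8 CPM. In the other 3 sections Dcn stood at 1703 to 2861 CPM against 458 to 638 CPM, and in the V male section Col3a1 stood at 69.0 and 38.1 CPM and Col1a1 at 78.5 and 51.9 CPM. Each gene was thus higher in such spots of every section, and in the V male section the gap was narrower for Dcn and Col1a2 than for Col3a1 and Col1a1, a difference that was not tested.

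To ask what else the members contain, UMIs were summed over the members and over the other spots of each section, and the 8 sums were compared with section as a block. The 4 genes were kept out of this fit. Levels of single genes below are CPM scaled by the trimmed mean of M-values (TMM), given as members first and other spots second. Of 14108 genes tested, 497 were higher in members (3.52%) and 343 lower (2.43%) where called means that the adjusted p was below 0.05 and the size of the log2 fold change above 0.25. Without the V male section, 594 of 13939 genes were higher (4.26%) and 484 lower (3.47%), and 790 genes were called in both fits, all in the same direction (94.0% of the first list, 73.3% of the second). Members against other spots gave fewer calls without the V female section, the deepest, at 157 higher and 32 lower. The same direction in all 4 sections was seen for 263 of the 497 higher genes and 289 of the 343 lower genes. The median log2 fold change was -0.03 over all genes.

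Genes of adventitial fibroblasts were higher in members. Of 14 genes on this list, 11 rose, none fell, with a median log2 fold change of 1.07. With V male left out 12 rose, and the median was 1.22. Summed over the list and scaled to total UMIs alone, the level in members was 1.67-fold, 2.20-fold, 0.952-fold and 1.55-fold that of other spots. Of 12 general fibroblast genes 6 rose and none fell (median 0.71), with 7 of 12 without the V male section. Without the V female section 10 of 14 adventitial and 6 of 12 general fibroblast genes rose.

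Pi16, a marker of adventitial fibroblasts, stood at 258 and 61.7, 391 and 117, 9.52 and 6.84, and 314 and 98.7 CPM. Every member sum lay above its own section's other spots, and the V male sums were far below all the rest. In V male members 1 UMI equals 1.90 CPM, so the V male direction of Pi16, and of Serpinf1 below, rests on few molecules. The log2 fold change of Pi16 was 1.72 ± 0.15 (SE), with an adjusted p of 1.3e-16 in edgeR's test. It was 1.82 with V male left out. Col14a1, a collagen that associates with fibrils, stood at 116 and 38.8, 259 and 71.8, 17.1 and 7.68, and 222 and 62 CPM, a log2 fold change of 1.72 ± 0.16. Serpinf1, which encodes pigment epithelium-derived factor, stood at 168 and 43.9, 237 and 76.4, 11.4 and 5.59, and 159 and 56.8 CPM, a log2 fold change of 1.61 ± 0.15. For these genes as well the V male members ranked below the other spots of the remaining sections. The other adventitial genes that rose were Cd34, Col15a1, Mfap5, Clec3b, Dpt, Ccl11, Igfbp6 and Fbln1. Dpp4, Ly6a and Il33 did not pass the test, and Il33 passed it without the V male section.

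Alveolar fibroblast genes went the other way. Of 11 genes, 4 fell (Npnt, Tcf21, Limch1 and Col13a1), none rose, with a median log2 fold change of -0.48. With V male left out 6 fell, and the median was -0.75. None was called without the V female section (median -0.47) or by DESeq2's Wald test (median -0.54). Npnt, which encodes the basement membrane protein nephronectin, stood at 301 and 488, 136 and 394, 499 and 437, and 252 and 426 CPM. Members were thus lower in 3 sections and higher in the V male. Tcf21, a transcription factor of lung lipofibroblasts, stood at 78.1 and 118, 57.0 and 105, 156 and 174, and 53.5 and 108 CPM. The log2 fold changes were -0.62 ± 0.16 for Npnt (adjusted p = 0.00547) and -0.64 ± 0.16 for Tcf21 (adjusted p = 0.00350) in edgeR's test, and -0.91 and -0.86 without the V male section.

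**Figure D2:**
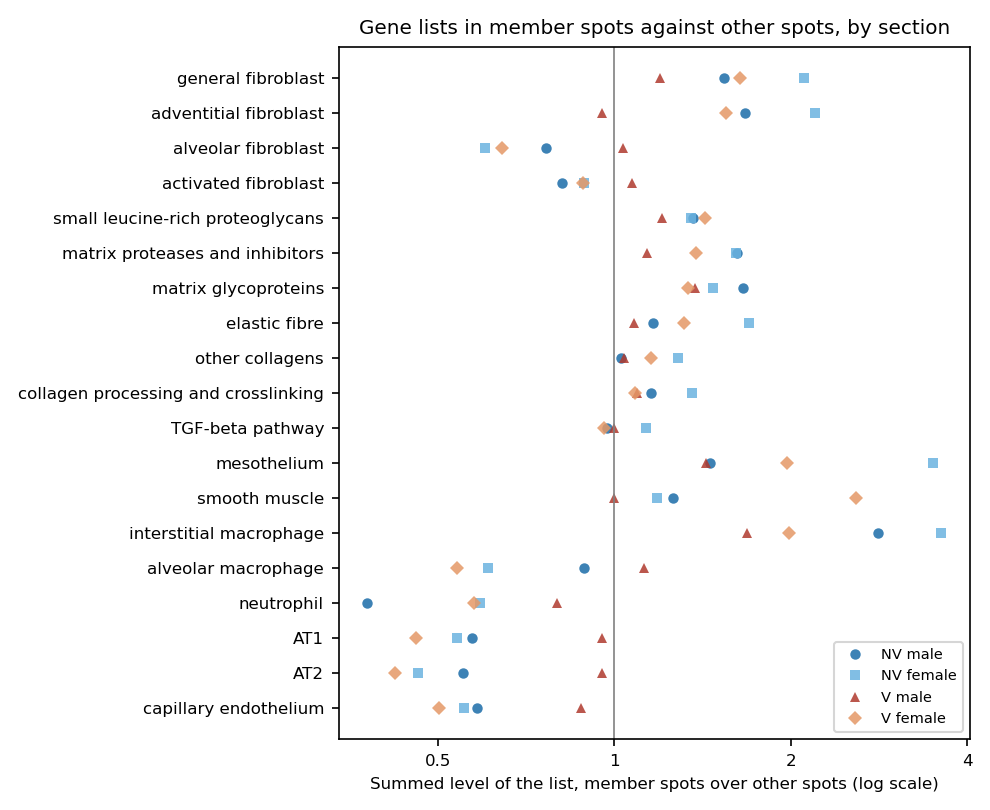
Summed level of each gene list in members divided by that in the other spots (horizontal log axis), with a symbol for each section. Mesothelial and interstitial macrophage lists lie above 1 and AT1, AT2 and capillary lists below 1 in all 4 sections, while the adventitial list lies above 1 in all but the V male section (0.952).

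The matrix lists below share genes with the fibroblast lists above, so their counts are not independent. Called genes on both kinds of list were Lum, Mmp2, Dpt, Clec3b, Fbln1, Mfap5, Col14a1, Col15a1 and Col13a1. Among matrix genes, the small leucine-rich proteoglycans (the family of decorin) rose for 6 of 9 measured genes, Lum, Fmod, Aspn, Podn, Omd and Ecm2, with a median log2 fold change of 0.75 (6 of 9 and 0.86 without V male). Without the V female section 2 of 9 rose (Lum and Ecm2, median 0.83), and DESeq2's Wald test called 3 of 9. Lum, which encodes the fibril-binding lumican, stood at 205 and 53.5, 325 and 86.6, 5.71 and 4.59, and 380 and 96.8 CPM, a log2 fold change of 1.87 ± 0.16 with an adjusted p of 7.84e-18. Lum was therefore scarce across the V male section, members included, and its direction there rests on few molecules. Of matrix proteases and their inhibitors, 8 of 13 rose and none fell, with a median of 0.93 (8 of 13 and 1.01 without V male). Without the V female section 5 of 13 rose (median 0.77). The stromelysin Mmp3 stood at 122 and 28.5, 105 and 47.7, 22.8 and 9.18, and 48.0 and 15.3 CPM, a log2 fold change of 1.61 ± 0.18. Gelatinase Mmp2 rose by 0.97 ± 0.15 and the aggrecanase Adamts5 by 1.59 ± 0.21. Mmp3 was above its own section's other spots in members of all 4 sections.

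Matrix glycoproteins rose for 10 of 19 genes with none lower (median 0.58, or 9 of 19 and 0.68 without V male), among them Fn1 (fibronectin, 0.65 ± 0.15), Dpt (dermatopontin, 1.06 ± 0.15), Clec3b (tetranectin, 1.08 ± 0.15) and Thbs2 and Vcan. Without the V female section 5 of 19 rose (median 0.61), and Fn1, Thbs2 and Vcan were not among them. Elastic fibre genes moved in both directions, with 6 higher and 1 lower of 15 tested (median 0.20), and 6 higher and 2 lower without V male (median 0.20). Without the V female section 5 rose and none fell (median 0.23), and Eln was not called. Eln, which encodes tropoelastin, stood at 107 and 65.4, 118 and 43.8, 53.3 and 51.7, and 115 and 58.9 CPM, a log2 fold change of 0.80 ± 0.16. The fibulin genes Fbln1 and Fbln2 rose by 1.33 ± 0.15 and 1.75 ± 0.16, while Mfap4, a microfibril protein, fell by 0.60 on the log2 scale (SE 0.15). Fbln1 and Fbln2 were thus raised more than elastin itself, a difference that was not tested.

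Collagens outside the rule moved in both directions, and 9 of 18 were not called. Of 18 genes, 6 rose (Col5a1, Col5a2, Col6a3, Col14a1, Col15a1 and Col18a1) and 3 fell (Col4a2, Col4a3 and Col13a1), with a median log2 fold change of 0.27. Without V male 7 rose and 3 fell, with a median of 0.33. Without V female 3 rose (Col5a1, Col14a1 and Col15a1) and none fell, with a median of 0.16. Col5a1, a chain of the fibril-forming type V collagen, stood at 101 and 53.1, 105 and 51.8, 49.5 and 29.4, and 89.0 and 46.7 CPM. Col4a3, a basement membrane chain found in alveolar walls, stood at 34.7 and 73.7, 26.3 and 78.6, 122 and 156, and 54.0 and 100 CPM. Col5a1 was higher and Col4a3 lower in the members of every section, with log2 fold changes of 0.91 ± 0.16 and -0.80 ± 0.17. Genes that process or crosslink collagen rose for 6 of 19, with none lower and a median of 0.17, and for 6 of 19 with a median of 0.35 without V male. They were Crtap, Pcolce, Bmp1, Adamts2, Loxl1 and Loxl2. Without V female 3 of 19 rose (Adamts2, Loxl1 and Pcolce), with a median of 0.21. Adamts2, which trims the procollagen amino end, rose by 1.29 ± 0.16.

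Activated fibroblast genes did not move as a group. Of 10 tested, Sfrp1 and Saa3 rose and Spp1 and Lcn2 fell, and the median log2 fold change was 0.09. Without V male 2 rose and 3 fell, with a median of 0.01. Without V female Sfrp1 alone rose and none fell, with a median of 0.19. Postn, Cthrc1 and Tnc, which mark matrix-producing fibroblasts of injured lung, did not pass the test. In the TGF-beta pathway, the main inducer of collagen genes in fibroblasts, 1 ligand rose (Tgfb3, 0.77 ± 0.21) and the co-receptor Eng and the inhibitory Smad6 fell (-0.65 ± 0.15 and -0.79 ± 0.16) among 18 genes, with a median of 0.02. The counts were the same without V male, with a median of 0.10. Without V female none of the 18 was called (median 0.06). Neither the receptors Tgfbr1 and Tgfbr2 nor Smad2, Smad3 or Smad4 passed the test. Eng is also abundant in endothelium, whose markers moved with it as given below.

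Interstitial macrophage genes rose with the fibroblast genes. Of 7 genes, 6 rose (among them C1qa, C1qb, C1qc, Folr2 and Cd163), none fell, with a median log2 fold change of 1.32. With V male left out 6 of 7 rose, with a median of 1.42. C1qa, a chain of complement C1q, stood at 252 and 99.0, 535 and 176, 57.1 and 34.3, and 188 and 97.8 CPM. Members lay above other spots in all 4 sections, and V male members fell below the other spots of the remaining sections. Its log2 fold change was 1.19 ± 0.14 with an adjusted p of 1.52e-10 in edgeR's test. Of 7 alveolar macrophage genes 1 fell (Chil3), and of 5 neutrophil genes 2 fell (S100a8 and S100a9), while neither list held a gene that rose. Without V male 2 of 7 and 2 of 4 fell. None was called without the V female section or by DESeq2's Wald test. In the V male section Chil3 was higher in members (480 and 404 CPM).

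Markers of some neighbouring structures moved with the members too. Mesothelial genes, of the cells that cover the pleura, rose for 7 of 8 (median 1.39, or 7 of 8 and 1.5 without V male). Upk3b stood at 122 and 49.1, 413 and 111, 97.1 and 24.8, and 237 and 76.0 CPM, so that members exceeded other spots in each section, V male included, with a log2 fold change of 1.71 ± 0.14 (adjusted p = 7.84e-18). Smooth muscle genes rose for 6 of 8 (median 0.71), and their summed level in members was 1.26-fold, 1.18-fold, 0.998-fold and 2.58-fold that of other spots. Acta2, the smooth muscle actin, stood at 176 and 142, 105 and 122, 45.7 and 43.8, and 491 and 155 CPM, so that the V female section stood apart. The list gave 6 of 8 without V male (median 0.87), but none of 8 without the V female section (median 0.21) and none by DESeq2's Wald test. Summed cardiac muscle genes ranged from 8792 to 16316 CPM in members of the other 3 sections and stood at 12.5 CPM in V male members, where Tnni3, Ryr2, Myh6 and Tnnt2 were at 0 UMIs. Other spots held 11552, 12739, 14.4 and 6677 CPM of these genes, so that members were higher in NV male and V female only. Summed adipocyte genes ranged from 980 to 3588 CPM in members of the sections other than V male and stood at 27.1 CPM in V male members. Other spots held 700, 3110, 25.3 and 4456 CPM of them, so that members were higher in NV male and V male only. The part of these tissues in the results was not tested.

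For the remaining lists, higher and lower genes numbered 2 and 0 of 6 for cartilage (Cnmd and Snorc), 1 and 0 of 8 for cardiac muscle, 1 and 0 of 3 for skeletal muscle and 0 and 2 of 10 for adipocytes. They numbered 3 and 1 of 6 for Schwann cells, which wrap nerve fibres, 0 and 1 of 5 for club cells and 0 and 0 of 7 for ciliated cells. Large vessel and lymphatic genes gave 1 and 0 of 9 (Mmrn1), B and plasma cell genes 2 and 0 of 8 (Iglc2 and Ms4a1), T cell genes 0 and 0 of 7 and red blood cell genes 0 and 0 of 5. The cartilage list held 4, 6, 0 and 215 UMIs in members, and the summed level of the Schwann cell list in members was 1.07-fold, 0.952-fold, 0.945-fold and 0.868-fold that of other spots. Without V male, cardiac muscle gave 2 and 0 of 8 and B and plasma cells 3 and 0 of 8, and the other lists of this paragraph kept their counts.

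Genes of the gas exchange surface were lower in members. AT1 genes fell for 5 of 6 (median -0.71), AT2 genes for 6 of 7 (-0.70) and capillary endothelial genes for 6 of 7 (-0.78), and none rose. Without V male 5 of 6, 7 of 7 and 6 of 7 fell, with medians of -0.97, -0.99 and -0.97. Without the V female section 1 of 6, 0 of 7 and 3 of 7 fell, with medians of -0.56, -0.50 and -0.58. Ager, the receptor that marks AT1 cells, stood at 923 and 1656, 663 and 1277, 2672 and 2961, and 827 and 1904 CPM. Sftpc, the surfactant protein of AT2 cells, stood at 15300 and 28300, 7856 and 18490, 31180 and 34080, and 8290 and 20010 CPM. Members were lower in each section, but the V male members exceeded the other spots of every other section for both genes. In summed levels, AT2 genes in members were 0.552-fold, 0.463-fold, 0.953-fold and 0.422-fold those of other spots. As spots hold mixed cells, fewer cells of a type and less RNA per cell cannot be told apart.

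**Figure D3:**
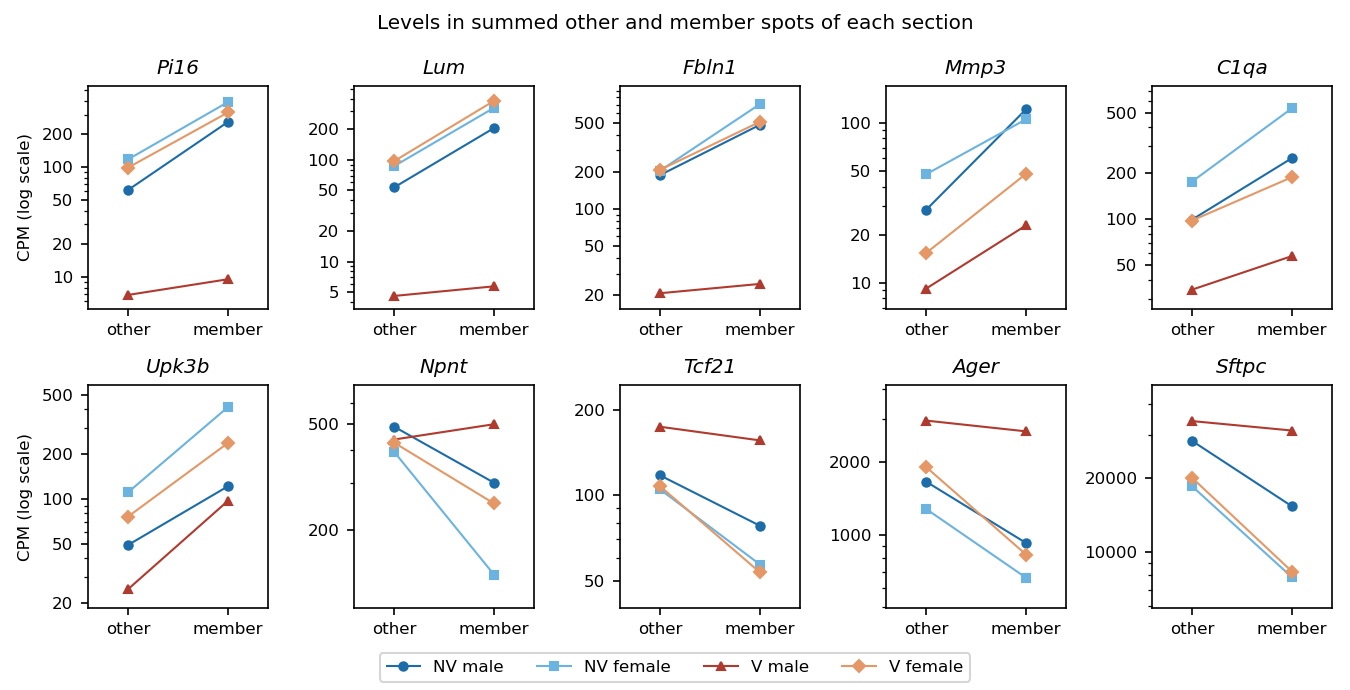
Levels (CPM, TMM-scaled, log axis) of 10 genes in the summed other spots and the summed members of each section, joined by a line per section. Pi16, Lum and Fbln1 rise steeply in 3 sections and lie far lower in the V male section. Ager and Sftpc are lower in members of every section, least so in V male, whose members stay high.

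Members overlapped to differing degrees with the spots rich in other gene lists. For each list, the highest 5% of the spots of a section were found in the same way as the members. The share of such a set over all spots with at least 2000 UMIs is thus 5%. Of the members, 43.6%, 59.1%, 2.70% and 38.5% were also in the adventitial set. Interstitial macrophage sets held 38.5%, 40.9%, 10.8% and 22.9% of the members, and mesothelial sets 17.9%, 40.9%, 16.2% and 31.2%. Of V male members, 2 were in the AT1 set and 3 in the AT2 set, and no member of the other 3 sections was in either. Cartilage UMIs were so few that outside the V female section the cartilage set reached spots without any, which are not counted here. Members in none of the smooth muscle, mesothelium, cartilage, cardiac muscle and adipocyte sets numbered 22 of 39, 9 of 22, 50 of 74 and 42 of 96. The same count was not made for other spots, so these numbers have no background and are a description. In the V male section, spots entered the cardiac muscle and adipocyte sets with as few as 1 UMI. For the smooth muscle and mesothelial sets of that section the fewest was 2 UMIs.

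**Figure D4:**
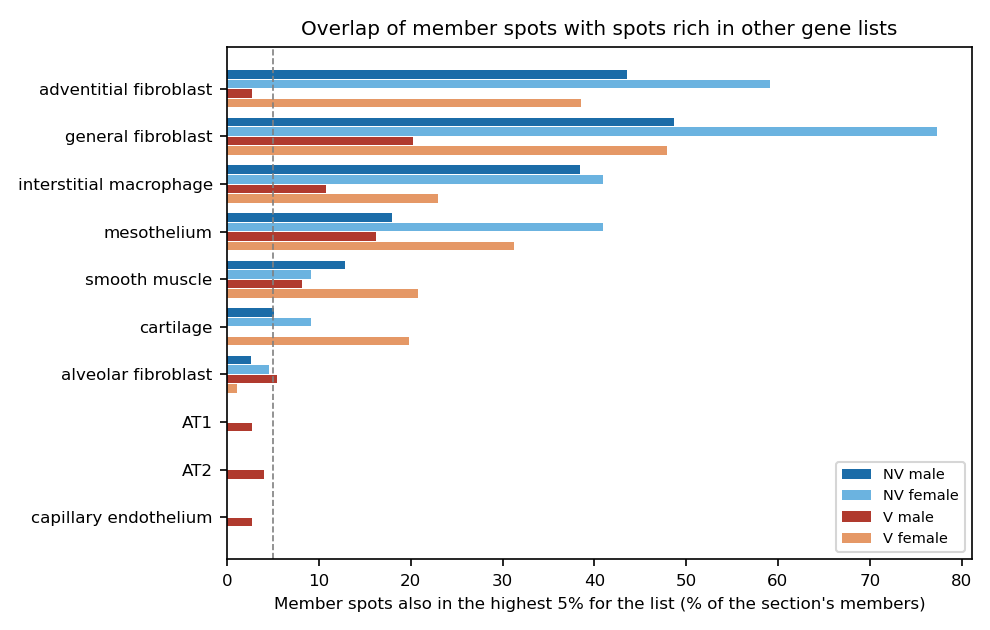
Share of each section's members that were also among the highest 5% of spots for another gene list (horizontal axis, %) and held a UMI of it; the dashed line marks 5%. The V male bars for adventitial, general fibroblast and interstitial macrophage sets are the shortest, and those of the other 3 sections lie far above the line.

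With members rich in smooth muscle, mesothelial or cartilage genes, and holding a UMI of that list, left out, members against other spots gave 182 genes higher and 64 lower. Under this setting 10 of 14 adventitial genes, 6 of 12 general fibroblast genes and 6 of 7 interstitial macrophage genes rose, with medians of 0.99, 0.74 and 1.28. Other matrix lists lost calls, with 1 of 9 small leucine-rich proteoglycans (Lum), 1 of 19 collagen processing, 3 of 18 other collagen, 3 of 15 elastic fibre and 5 of 19 matrix glycoprotein genes higher. Fewer members and UMIs entered this fit, and their part in the lost calls was not tested. No alveolar fibroblast gene was called (median -0.41). None of the smooth muscle or mesothelial genes passed the test there, and the fitted value of Acta2 turned to -0.28. AT1, AT2 and capillary genes fell for 2 of 6, 1 of 7 and 4 of 7. The smooth muscle and mesothelial genes had chosen the members left out, while other spots rich in them stayed. Lower values of these genes in the remaining members thus follow from the choice and test nothing. Where every spot was thinned to 2000 UMIs, 140 of 9302 genes were called, among them 6 of 14 adventitial and 3 of 6 interstitial macrophage genes.

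By size, the called genes of at least 20 CPM on average with the highest log2 fold changes and the same direction in all 4 sections were Cma1, Pkhd1l1, Adgrd1, Cxcl13, Ifi205, Flrt2, Retnla, Muc16, Gfpt2, Lum, Scara3 and Cd248. Cma1 encodes the mast cell protease chymase, with a log2 fold change of 2.22 ± 0.29, Cxcl13 a chemokine that attracts B cells (2.02 ± 0.21) and Cd248 the stromal protein endosialin (1.79 ± 0.19). In the V male section Cma1 held 1 UMI in members and 22 in other spots (1.90 and 1.84 CPM). Its direction in that section therefore rests on 1 molecule. Retnla, which encodes the secreted resistin-like protein FIZZ1, stood at 1128 and 173, 1224 and 354, 5.71 and 4.59, and 554 and 171 CPM. Retnla was thus abundant in 3 sections and scarce in the V male section, where its direction also rests on few molecules. Its log2 fold change was 1.97 ± 0.17, or 2.07 with V male left out.

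The lowest were Higd1b, Foxf2, Mab21l4, Npw, Crb3, BC028528, Aplnr, Scnn1g, Scnn1b, Prss8, Ldb2 and Igfbp2. Higd1b, a pericyte gene, stood at 28.9 and 39.7, 13.2 and 42.4, 26.6 and 62.5, and 16.5 and 49.2 CPM, a log2 fold change of -1.30 ± 0.21 (adjusted p = 1.99e-06). Scnn1b and Scnn1g encode subunits of the epithelial sodium channel, which clears fluid from the airspaces, and fell by 0.98 each on the log2 scale. Aplnr encodes the apelin receptor of capillary endothelium and Crb3 a polarity protein of epithelium, and both were lower in all 4 sections.

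Over spots, the genes outside the rule whose level followed the score most closely included C3, Igfbp5, Fbln1, C4b, Col14a1, Dpt, Lgals1, Serpinf1 and Igfbp4, as the mean over sections of Spearman's rho within a section. The means ran from 0.359 for C3 to 0.235 for Igfbp4, over 781, 436, 1489 and 1926 spots, which share depth and library, and are a description. For C3, the central complement component, rho was 0.361, 0.515, 0.118 and 0.443. C4b, another complement component, reached a mean of 0.280. At the other end stood Epas1, the hypoxia-responsive factor HIF-2alpha, with a mean of -0.333 and -0.04 in the V male section. For every gene named here the V male value was nearest to 0.

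To ask whether members differed with vaping, member sums were compared between V and NV with n = 2 mice a group. Levels keep the scaling of the 8 sums, while the fit was scaled on the 4 member sums alone. Of 7116 genes tested, none was called (0%), and 150 had an unadjusted p under 0.05 in edgeR's quasi-likelihood test, with 0.9998 as the smallest adjusted p. DESeq2's Wald test and limma also called 0 genes. In simulated data with this design, 30% of the genes set to differ by 2 on the log2 scale were recovered. The biological coefficient of variation was 0.385, against 0.127 in the comparison of members with other spots.

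Lum stood at 193 ± 265 CPM in V members and 265 ± 84.4 CPM in NV members (mean ± SD, n = 2), with a log2 fold change of -0.48 ± 1.36 (SE). The V value joins 5.71 CPM in the male and 380 CPM in the female, so that the V sections enclosed both NV sections. Pi16 stood at 162 ± 215 and 324 ± 94.1 CPM and C1qa at 123 ± 92.9 and 394 ± 201 CPM in V and NV members, with log2 fold changes of -1.02 ± 1.23 and -1.71 ± 0.70. For C1qa the V sections (57.1 and 188 CPM) lay below the NV sections (252 and 535 CPM), though the adjusted p was 0.9998, and V and NV sections did not overlap for 30.4% of all genes tested. The medians over lists were -1.04 for adventitial genes, -0.61 for general fibroblast genes, 0.65 for alveolar fibroblast genes, -0.19 for the other collagens and -1.70 for interstitial macrophage genes, against 0.02 over all genes. Without V male they were -0.27, -0.31, 0.16, 0.01 and -1.06, against -0.03 over all genes.

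The genes with the smallest unadjusted p that were higher in V members were Sec14l3, Fxyd3, Plcb4, Dcxr and Acaa1b, and those lower were Slco2b1, Nr4a1, Wdfy4, Ly86 and Mmrn1. Slco2b1, an organic anion transporter, stood at 60.8 and 74.6 CPM in NV and 19.0 and 17.5 CPM in V members. Nr4a1, an immediate-early transcription factor, stood at 373 and 96.5 CPM in NV and 26.6 and 35.0 CPM in V members. Fxyd3, a regulator of the sodium pump, stood at 5.79 and 21.9 CPM in NV and 62.8 and 83.0 CPM in V members. The groups did not overlap for these 3 genes, as for 30.4% of all genes, and they were picked by their p among all genes and none passed adjustment.

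The calls changed with the section left out. With the V female section alone against the NV sections, which assumes that a lone section varies like the others, 100 of 7293 genes were called, 78 higher and 22 lower. They included 3 of 8 smooth muscle genes, 5 of 8 adipocyte genes and 3 of 4 club cell genes, all higher in V female, and C1qc, Mmrn1, Iglc2 and Ccn1, which were lower. None of the 14 adventitial, 12 general fibroblast or 17 other collagen genes was among them. With the V male section alone, V against NV in members gave 716 of 7618 genes called, 261 higher and 455 lower. The composition of the V sections moved with these counts, and its part in them was not tested.

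Taking the other spots of each section as its own reference, the difference between members and other spots was then compared between V and NV. Of 14108 genes, 5 differed upwards in V (0.0354%) and 3 downwards (0.0213%). Scgb3a2, a club cell secretoglobin, stood at 83.9 and 211, 17.6 and 91.0, 3.81 and 2.92, and 1937 and 1216 CPM. Hence it was lower in the members of both NV sections and higher in those of the V female, while V male members held 2 UMIs. Fcna, a ficolin made by macrophages, stood at 69.4 and 7.64, 434 and 58.7, 0 and 2.25, and 34.5 and 12.2 CPM. Mmrn1, a multimerin of lymphatic endothelium, stood at 148 and 33.2, 83.4 and 26.1, 34.3 and 36.5, and 45.5 and 27.0 CPM, so that members exceeded other spots most in NV. The log2 differences were 2.23 ± 0.41 for Scgb3a2 (adjusted p = 0.00103), -1.63 ± 0.36 for Fcna and -1.49 ± 0.33 for Mmrn1 (both 0.0201). Without the V male section 0 genes passed, and DESeq2's Wald test called 0, while edgeR gave 645 genes an unadjusted p under 0.05 over all 4 sections.

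**Figure D5:**
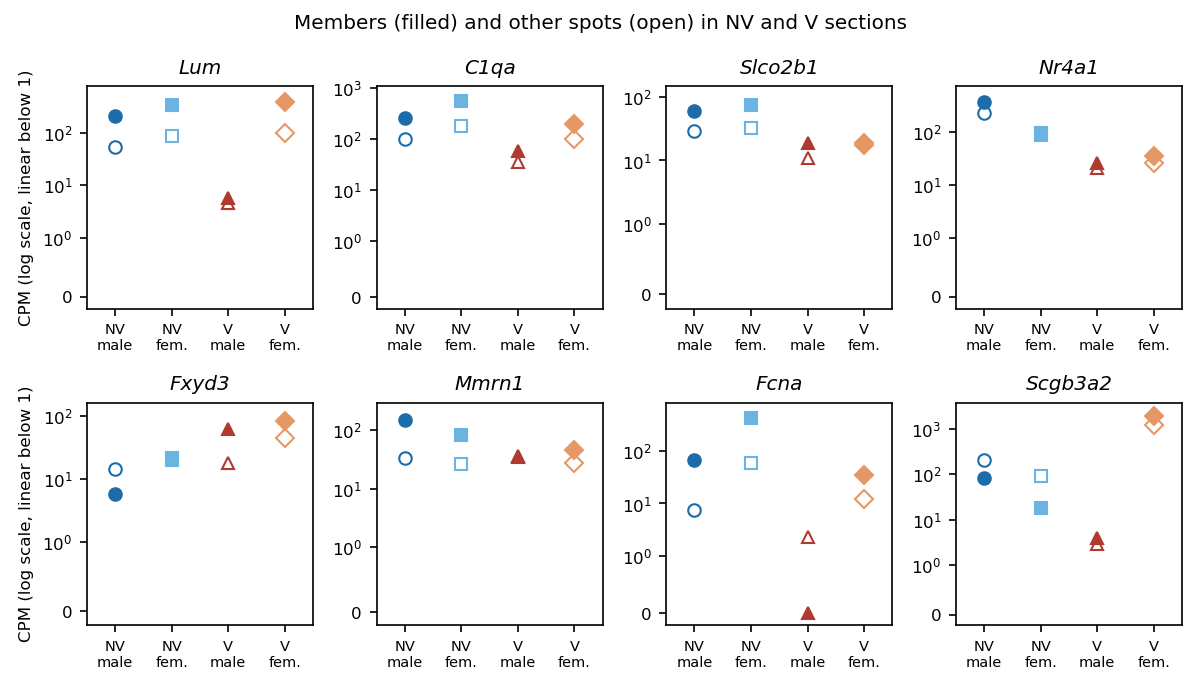
Levels (CPM, TMM-scaled, log axis, linear below 1) of 8 genes in members (filled) and other spots (open) of the NV and V sections. Lum is near 5 CPM only in the V male section, Slco2b1 and Nr4a1 members are lower in both V sections, and Scgb3a2 is high in the V female section alone.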

How the data were processed

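Lung sections of 2 V and 2 NV mice were placed on Visium slides. With SpaceRanger the authors aligned the reads to mm10, and they deposited raw UMI counts per gene (32285 genes) and spot for each section. The submitters' notes also list Seurat 4.0.3, but the deposited counts are not normalized. Groups came from the sample labels. Sections held 9386470 (NV male), 6957392 (NV female), 11880468 (V male) and 34308556 (V female) UMIs, of which members held 352039, 217591, 480117 and 2145942. With n = 2 a group p-values measure only the spread between these sections.

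Members were chosen in each section by the rule in the text, with ties going to more UMIs of the 4 genes and then to column order. The members, gene lists and tests were chosen with earlier results of these data known. The tests on sums used the quasi-likelihood method of edgeR 4.0.16 (R 4.3.3) after TMM scaling and filterByExpr. A called gene had a p below 0.05 after Benjamini-Hochberg adjustment and moved by more than 0.25 on the log2 scale. Each standard error is the size of the fold change over the root of its F value. Summed levels of lists are CPM of total UMIs. Named were genes of the lists, the 12 called genes with the highest and the 12 with the lowest fold change among those with a mean of at least 20 CPM and the same direction in all sections, up to 10 called genes a direction between V and NV with the 5 of smallest p a direction where fewer than 10 were called, and the 10 genes that best followed the score. Some genes that this rule names are not reported here.

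Each fit was tested on simulated data with 200 genes set to differ by 2 on the log2 scale. It recovered 85% among 14108 genes (members against other spots), 30% among 7116 genes (V against NV) and 52% among 14108 genes (member contrast). The simulation gave all genes of a fit the same spread and no tissue differences between sections, so these shares need not hold for the measured counts. DESeq2 1.42.0, limma 3.58.1, other spot filters and each section left out were tried as alternatives. The list counts without the V male or the V female section, and the set that required a UMI, were added after seeing the data.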

Additional observations from a re-analysis of the deposited data

Results flagged for a closer look

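The difference between members and other spots differed between V and NV for 8 genes in edgeR's quasi-likelihood test of the interaction. Upwards in V were Scgb3a2 by 2.23, Chrm2 by 1.98, Sncg by 1.94 and Me1 by 1.61 on the log2 scale. Downwards were Fcna at -1.63, Igha at -1.60 and Mmrn1 at -1.49. Prph, a neuronal intermediate filament, held 42 UMIs in V female members and 0 in the members of the other 3 sections, so that no fold change is given. In other spots Prph held 43 (NV male), 127 (NV female), 0 (V male) and 176 (V female) UMIs. Chrm2, a muscarinic acetylcholine receptor, stood at 55.5 and 21.4 CPM in members and other spots of the V female section, against 26.0 and 39.6 CPM in the NV male and 21.9 and 36.5 CPM in the NV female. Igha, which encodes the heavy chain of IgA, stood at 217 and 68.8, 17.6 and 44.0, 137 and 280, and 192 and 239 CPM in the order NV male, NV female, V male, V female, so that the NV sections went in opposite directions. None of the 8 genes passed without the V male section.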

How the results depend on the processing

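For members against other spots the count of called genes (840) fell to 274 with DESeq2's Wald test, 556 with spots of at least 5000 UMIs, 475 with the highest 2.5% of spots, 140 with thinned spots, 251 without members rich in smooth muscle, mesothelium or cartilage genes (246 where such members had to hold a UMI of the list, added after seeing the data), 531 with members chosen without Dcn and 0 with no section block. It ranged from 189 (without V female) to 1078 (without V male) when a section was left out, and was 534 without NV male. Of 78 named genes called, Acta2 (-0.28), Myh11 (-0.34, or -0.31 with the UMI required) and Cnn1 (-0.25) changed direction without the members rich in those tissues and none did under the other alternatives run; 60 of 78 kept their call with DESeq2, 42 of 77 when thinned and 52 of 78 without V female. Acta2, Myh11 and Cnn1 are on the smooth muscle list that helped to choose the members left out, while other spots rich in it stayed. The cause of the other changes was not tested.

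V against NV in members gave 43 calls with no filter on low counts and 0 to 716 without a section (100 without V male, 716 without V female, 0 without either NV section). The value of Lum turned to 0.0097 without spots over 1% in cardiac and adipocyte UMIs, and ranged from -5.50 to 0.51 over sections left out. The member contrast (8 calls) gave 0 with DESeq2's Wald test, 4 with no filter, 1 with at least 5000 UMIs, 32 with the highest 2.5%, 0 with thinned spots, 15 without cardiac and adipocyte spots, and 0 to 52 without a section (52 without NV male, 4 without NV female, 3 without V female, 0 without V male). Igha reversed to 0.39 with the highest 10% of spots and ranged from -2.30 to 0.66 over sections left out.

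With the replicate number as a block, V against NV in members gave 0 calls and the member contrast 0 in limma. Deviations of same-numbered sections from their group means correlated at 0.0595 over 7116 genes, and the labels name no shared litter or day, so the numbers were not taken to pair the sections. The V male members held a median of 4 UMIs of the chosen genes.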
